A study of Mus musculus with 4 samples.

Results

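The Trim genes encode tripartite motif proteins, and they were followed here in double positive thymocytes, the stage that expresses both Cd4 and Cd8, of mice meant to lose Ikaros. Members were chosen by symbol: all probe sets of the array whose single annotated symbol is Trim followed by a number and at most one letter from a to e. The rule found 111 of 45037 probe sets, which stand for 58 of the 18193 named genes. No measured value enters the rule itself, but the family was selected on the Cre+ against Cre- differences of Trim2 and Trim16, which were already known. Those values are therefore given as a description with no p, and no call in this contrast is used to support a statement about the family as a whole.

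The 4 samples were 2 Ikf/f CD4-Cre+ mice, mouse 53 (sample 1) and mouse 69 (sample 2), and 2 Ikf/f CD4-Cre- mice, mouse 52 (sample 1) and mouse 57 (sample 2), with 1 Affymetrix array each. All 4 carry the Ikf/f genotype, taken as floxed alleles of the gene for Ikaros (Ikzf1), and only the Cre+ mice carry CD4-Cre, a Cre transgene that acts from the stage at which thymocytes express Cd4. No Cre+ mice without Ikf/f were among the samples, so Cre and the loss of Ikaros cannot be told apart. Age, strain and cell isolation are not stated in the sources used here.

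Values are log2 signals made by robust multi-array average (RMA), so a difference of 1 is a doubling. Ikzf1 read 10.80 and 10.62 in Cre+ mice, against 12.40 and 12.08 in Cre- mice. Every array had high signal for genes of the double positive stage, such as Rag1, which read 13.25 and 13.41 in Cre+ mice and 13.46 and 13.42 in Cre- mice. Of 10 such markers 6 had both Cre+ arrays below both Cre- arrays, against 18.7% of all genes kept by the filter given below. Another 2 had them above, against 34.2%. The median difference of the 10 was -0.12, with Cd1d1 at -0.66 and Ptcra at 1.16. Whether the stages were mixed differently in the 2 groups was not tested. Pearson's r across all probe sets was 0.984 to 0.994 between arrays. Xist, expressed from the inactive X chromosome, read 5.09 and 5.37 in Cre+ mice, against 4.73 and 12.75 in Cre- mice. The Y-linked Kdm5d read 8.37 and 8.23 in Cre+ mice, against 8.29 and 2.87 in Cre- mice, so Cre- sample 2 alone had a female pattern.

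Tripartite motif proteins carry a RING finger, 1 or more B-boxes and a coiled coil, followed by a C-terminal domain that differs between subfamilies and picks the target. Most attach ubiquitin to other proteins through the RING finger, and some members lack it. A part of the family is induced by interferon and acts in antiviral defence, including sensing of viral RNA and restriction of retroviral capsids. Others act in transcription, as with the PHD and bromodomain members, or in the cytoskeleton and in protein turnover in nerve and muscle.

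The probe set of highest mean signal stood for each gene, and 37 of the 58 Trim genes had a mean at or above the filter of 4.76, the 40th percentile of named probe sets. Of the 35 that remain without Trim2 and Trim16, 1 was called higher in Cre+ mice (Trim30d), 0 were called lower and 34 did not pass, with 8 higher and 1 lower at an unadjusted p under 0.05. The call is an adjusted p under 0.05 in limma, with Benjamini-Hochberg adjustment over all 11639 kept genes, of which 1.37% were called in either direction, 1.11% higher and 0.266% lower, and 14.3% were higher and 6.29% lower at the unadjusted threshold. Trim2 passed the filter only through the Cre+ mice. Again without Trim2 and Trim16, both Cre+ arrays lay above both Cre- arrays for 14 of the 35 genes (40%), against 34.2% of all kept genes. They lay below them for 6 of the 35, against 18.7% of all kept genes. The median difference of the 35 was 0.15, against 0.06 for all kept genes. Of the 35, 21 (60%) differed by less than 0.25 in size, against 65.3% of all kept genes.

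**Figure D1:**
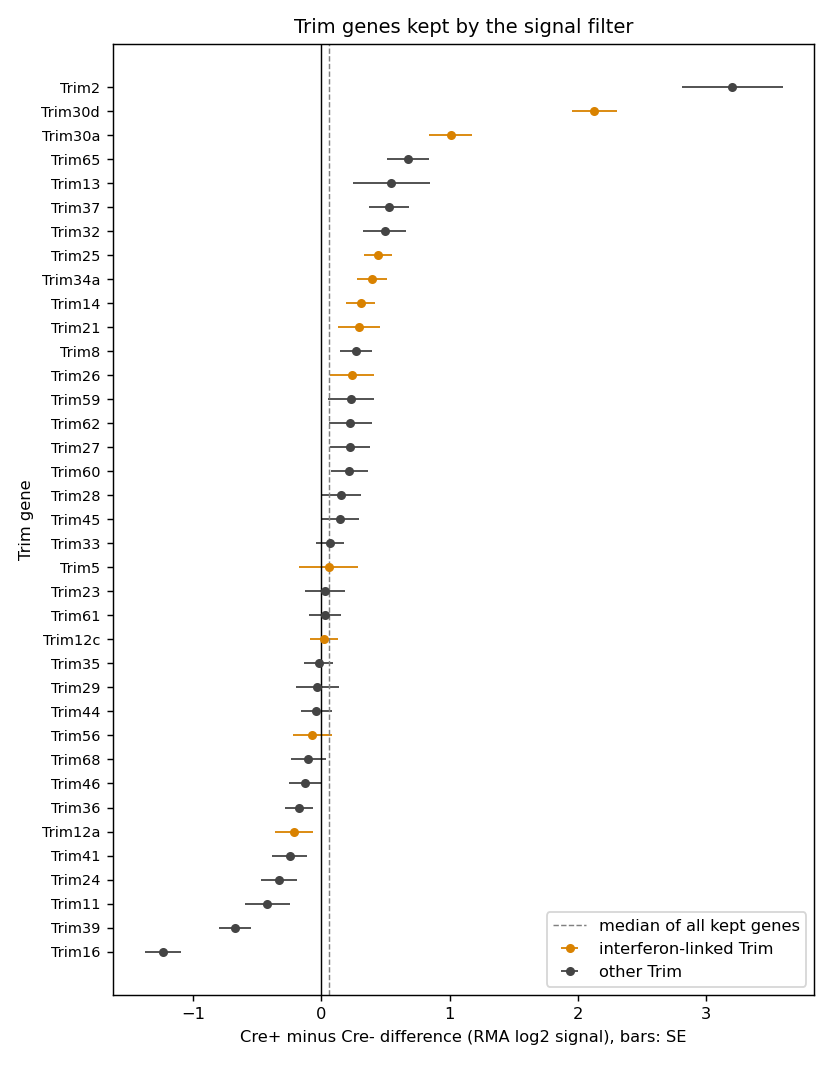
Cre+ minus Cre- difference of each of the 37 Trim genes kept by the signal filter, in RMA log2 units, with the standard error from limma as bars (n = 2 mice per group), interferon-linked genes in orange and other Trim genes in grey. Trim2 (3.20), Trim30d (2.13) and Trim30a (1.01) lie at the high end, Trim16 (-1.24) at the low end, and the dashed line marks the median of all kept genes at 0.06.

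Members were next split into interferon-linked genes, a list set down from background knowledge, and the rest. Of the 17 names on that list 11 had a probe set of their own, and all 11 were kept. Of these 11, 6 lie in a run of 10 neighbouring Trim genes on chromosome 7 in the RefSeq order of the GRCm38.p6 assembly, namely Trim6, Trim34a, Trim5, Trim12a, Trim34b, Trim12c, Trim30b, Trim30c, Trim30a and Trim30d. The promoters of 5 interferon-linked genes are shown because genes with the same short motif in this window had different responses. The windows span 250 bases before to 50 after the RefSeq start in GRCm38.p6. They lie at chr7:104507800-104508099 (Trim30d, minus strand), chr7:104465144-104465443 (Trim30a, minus strand), chr7:104244207-104244506 (Trim34a, plus strand), chr7:104353300-104353599 (Trim12c, minus strand) and chr7:102565433-102565732 (Trim21, minus strand). Capitals mark each match to a form of the interferon-stimulated response element, GAAA and GAAA parted by any 2 bases, searched on both strands. Where the match is on the opposite strand, its reverse complement is what appears in capitals.
Trim30d: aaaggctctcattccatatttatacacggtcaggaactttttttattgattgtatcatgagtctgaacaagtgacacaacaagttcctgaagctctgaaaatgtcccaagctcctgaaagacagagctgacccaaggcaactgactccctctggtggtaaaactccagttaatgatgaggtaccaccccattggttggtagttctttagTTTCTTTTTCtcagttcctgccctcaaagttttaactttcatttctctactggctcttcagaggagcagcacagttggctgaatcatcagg
Trim30a: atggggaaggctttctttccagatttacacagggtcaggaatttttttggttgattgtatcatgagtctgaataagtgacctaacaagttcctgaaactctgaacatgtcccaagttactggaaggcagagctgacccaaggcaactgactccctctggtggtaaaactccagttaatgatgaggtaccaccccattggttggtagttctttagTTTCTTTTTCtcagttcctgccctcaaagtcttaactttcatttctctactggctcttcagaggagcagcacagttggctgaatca
Trim34a: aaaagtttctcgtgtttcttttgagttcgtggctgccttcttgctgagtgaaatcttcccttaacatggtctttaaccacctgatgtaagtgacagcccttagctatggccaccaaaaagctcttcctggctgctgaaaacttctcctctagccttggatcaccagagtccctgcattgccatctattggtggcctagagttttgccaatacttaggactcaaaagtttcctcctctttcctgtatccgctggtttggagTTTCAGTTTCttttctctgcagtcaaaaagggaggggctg
Trim12c: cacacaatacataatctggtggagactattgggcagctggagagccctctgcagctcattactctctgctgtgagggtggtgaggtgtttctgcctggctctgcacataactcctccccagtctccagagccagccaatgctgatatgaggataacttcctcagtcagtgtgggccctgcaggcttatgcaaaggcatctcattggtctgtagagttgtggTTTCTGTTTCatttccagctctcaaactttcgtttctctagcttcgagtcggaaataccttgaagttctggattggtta
Trim21: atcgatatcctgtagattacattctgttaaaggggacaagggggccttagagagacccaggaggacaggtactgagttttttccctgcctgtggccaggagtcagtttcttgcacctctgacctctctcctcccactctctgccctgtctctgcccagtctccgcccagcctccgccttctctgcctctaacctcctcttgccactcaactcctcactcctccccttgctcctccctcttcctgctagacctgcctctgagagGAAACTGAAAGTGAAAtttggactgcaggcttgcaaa

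The match lay on the opposite strand, upstream of the start, in Trim30d, Trim30a and Trim12c, with 31, 26 and 19 bases between it and the start. In Trim34a it lay past the start on the opposite strand, and in Trim21 a pair of overlapping matches lay past the start on the printed strand. Of the 58 Trim genes 47 matched the RefSeq promoter table, with 61 windows, and 10 of these windows (16.4%) held the motif. All windows of the table held it in 3.44% of cases (1131 of 32851). By gene, it was present in a window of 8 of the 10 matched interferon-linked genes (80%) and in 1 of 37 other Trim genes (2.7%), which was Trim2 in 1 of its 5 windows. The 2 matched interferon-linked genes without it in this window were Trim25 and Trim56. The shorter motif TGGGAA, which holds the core bound by Ikaros proteins, occurred on either strand in 12 of 61 Trim windows (19.7%), against 25.6% of all windows. The Trim30d and Trim30a windows were near copies, with 276 of 295 aligned bases identical (93.6%) and a shared run of 118 bases that includes the match.

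Trim30d, a member of the mouse Trim30 group of RING and SPRY proteins, was the interferon-linked gene called higher in limma. Its representing probe set read 7.28 and 6.95 in Cre+ mice, against 4.83 and 5.14 in Cre- mice. The groups did not overlap, and the Cre- signals were close to the filter of 4.76. The means were 7.11 ± 0.23 in Cre+ and 4.98 ± 0.22 in Cre- mice (SD, n = 2 each), a difference of 2.13 ± 0.17 (SE) or 4.37-fold, with an adjusted p of 0.0163 in limma over all kept genes. The other Trim30d probe set read 4.18 and 4.16 in Cre+ mice, against 3.39 and 3.70 in Cre- mice, with no overlap and all 4 values under the filter, and averaged over both sets Trim30d differed by 1.38. With 1 array left out, Trim30d was called only without Cre+ sample 2. Its difference was 1.97 without Cre- sample 1 (adjusted p = 0.138), 2.28 without Cre- sample 2 (adjusted p = 0.125) and 1.96 without Cre+ sample 1 (adjusted p = 0.0568).

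Trim30a, its neighbour on chromosome 7, restrains NF-kappaB signalling from Toll-like receptors in mouse macrophages. It read 10.23 and 10.14 in Cre+ mice, against 8.97 and 9.39 in Cre- mice. Both Cre+ arrays lay above both Cre- arrays. The difference was 1.01 ± 0.17 (SE), or 2.01-fold, and just missed the threshold (limma adjusted p = 0.0587). A further Trim30a probe set read 8.57 and 8.41 in Cre+ mice, against 7.13 and 7.11 in Cre- mice, and differed by 1.37. Averaged over both probe sets, Trim30a differed by 1.19 and was called (limma adjusted p = 0.0223, within 0.0192 to 0.225 over 11 alternatives). Trim30a and Trim30d are close paralogs, and how far their probe sets bind each other's transcript was not tested.

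The remaining members of the chromosome 7 run were not called. Trim34a, a RING and SPRY protein induced by interferon, read 9.50 and 9.48 in Cre+ mice, against 9.17 and 9.02 in Cre- mice. These groups did not overlap, and the difference was 0.40 ± 0.12 (limma adjusted p = 0.155). Trim5, named after the primate restriction factor that binds retroviral capsids, read 8.38 and 8.54 in Cre+ mice, against 8.73 and 8.08 in Cre- mice. Its Cre+ values fell between the Cre- values. Trim12c, which in mouse cells promotes type I interferon production, read 9.99 and 10.04 in Cre+ mice, against 9.99 and 10.01 in Cre- mice. All 4 Trim12c values lay within 0.05 of each other, although the gene lies in the same run as Trim30a and has the same motif in its window. Trim12a read 10.16 and 9.89 in Cre+ mice, against 10.33 and 10.16 in Cre- mice, and its groups overlapped by a small margin. Its further probe set read 6.76 and 6.60 in Cre+ mice, against 7.45 and 6.99 in Cre- mice, with no overlap and lower signal in the Cre+ mice. Trim6, which stands first in the run, had a mean under the filter and read 4.43 and 4.25 in Cre+ mice, against 3.38 and 3.85 in Cre- mice. Trim34b, Trim30b and Trim30c had no probe set of their own.

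**Figure D2:**
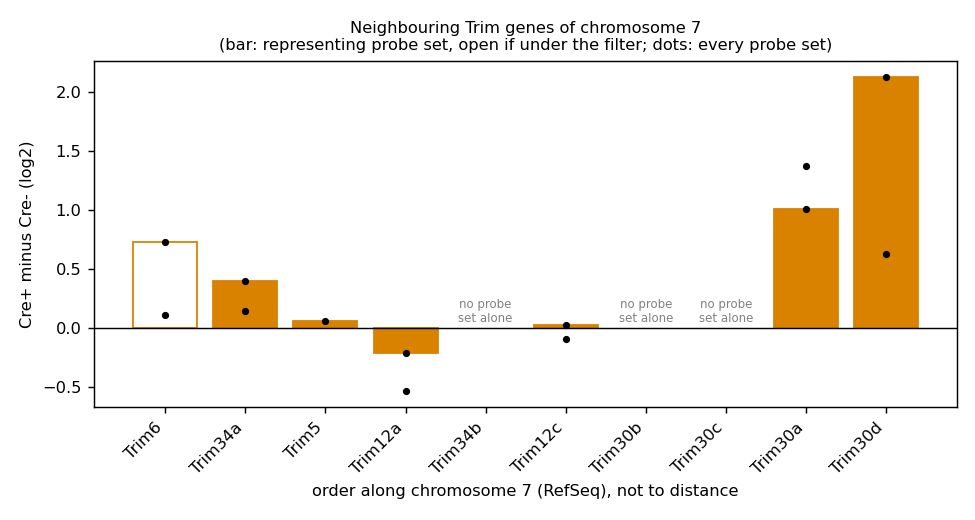
Cre+ minus Cre- difference (RMA log2 units) of the Trim genes that neighbour each other on chromosome 7, in RefSeq order and not to distance. Bars are the representing probe set (open where the gene was under the filter) and dots every probe set. Differences were 2.13 at Trim30d and 1.01 at Trim30a at one end of the run, and 0.06, -0.21 and 0.02 at Trim5, Trim12a and Trim12c.

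Of the interferon-linked members outside the run 0 were called, and their differences were -0.07 to 0.44. Trim25, the ligase that modifies the viral RNA sensor RIG-I, read 12.13 and 12.14 in Cre+ mice, against 11.67 and 11.71 in Cre- mice. The spread within each group was far under the gap between them, and the difference of 0.44 ± 0.11 (SE) had an adjusted p of 0.116 in limma. Its 3 probe sets differed by 0.38 to 0.45, all without overlap. Trim14, a mitochondrial adaptor in antiviral signalling that lacks a RING finger, read 6.77 and 6.76 in Cre+ mice, against 6.42 and 6.49 in Cre- mice. Its groups did not overlap either (difference 0.31 ± 0.11, limma adjusted p = 0.208). Trim21, the cytosolic antibody receptor, read 9.81 and 9.81 in Cre+ mice, against 9.72 and 9.31 in Cre- mice. The Cre- mice of Trim21 lay further from each other than Cre- sample 1 lay from the Cre+ mice, and its other probe set differed by -0.02.

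Trim26 and Trim56 overlapped between the groups. Trim26, an interferon-induced ligase of the nucleus and cytoplasm, read 7.35 and 6.90 in Cre+ mice, against 6.87 and 6.91 in Cre- mice, so that only Cre+ sample 1 stood apart. Trim56, a regulator of signalling from cytosolic DNA, read 10.49 and 10.71 in Cre+ mice, against 10.80 and 10.53 in Cre- mice.

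Of the 11 interferon-linked members, 1 rose, 0 fell and 10 did not pass in limma, where 1.11% of all kept genes were called higher and 0.266% lower. At an unadjusted p under 0.05 in limma, 5 were higher and 0 lower (14.3% and 6.29% of all kept genes). The groups did not overlap for 6 of them, all with Cre+ above Cre- (54.5%), against 34.2% of all kept genes. Their median difference was 0.29, against 0.05 for the 26 other kept Trim genes and 0.06 for all kept genes. The median deviation from each gene's mean was 0.16 and 0.15 in Cre+ samples 1 and 2, and -0.12 and -0.20 in Cre- samples 1 and 2. Averaging the probe sets of each gene gave an interferon-linked median of 0.12.

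**Figure D3:**
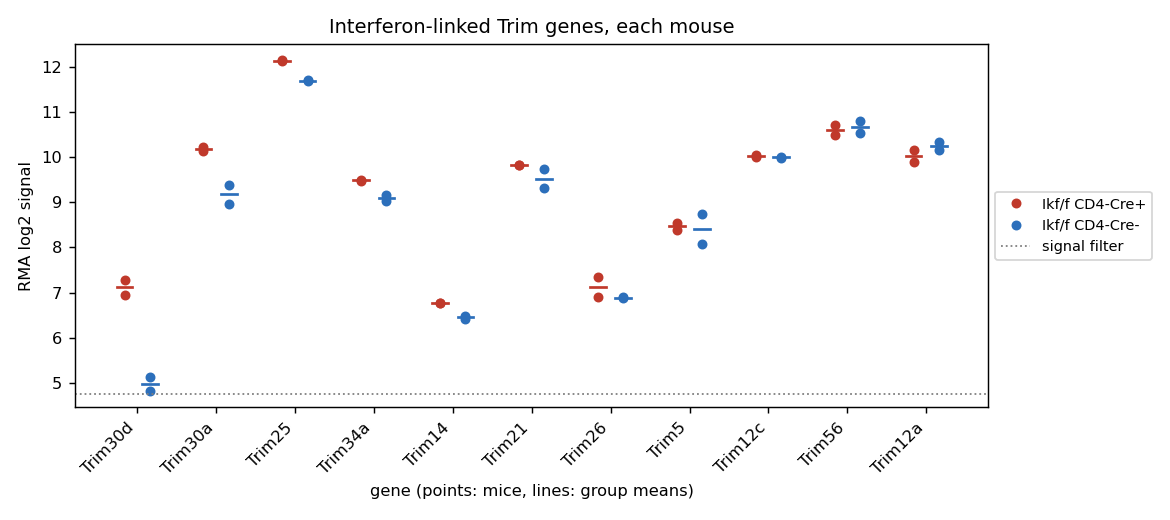
RMA log2 signal of the 11 interferon-linked Trim genes in each mouse, Cre+ in red and Cre- in blue, with group means as short lines and the signal filter dotted. Trim30d and Trim30a show the widest separation between the groups (differences of 2.13 and 1.01), while the points of Trim5, Trim12c, Trim56, Trim12a and Trim26 overlap.

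Interferon response genes outside the family had a wider median difference than the interferon-linked Trim members on the same arrays. Of 15 kept genes on that list, whose Cre+ against Cre- values were known beforehand, 7 were called higher, 0 lower and 8 did not pass in limma (13 higher and 0 lower at an unadjusted p under 0.05), against 1.11% of all kept genes called higher and 14.3% higher at the unadjusted threshold. Their median difference was 1.10, against 0.29 for the Trim list. Rtp4, an interferon-induced receptor transporter protein, read 10.69 and 10.75 in Cre+ mice, against 7.88 and 8.13 in Cre- mice. Ifih1, which encodes the viral RNA sensor MDA5, read 9.50 and 9.64 in Cre+ mice, against 7.54 and 7.59 in Cre- mice. Ddx58, which encodes RIG-I, the partner of Trim25, read 8.17 and 7.99 in Cre+ mice, against 7.56 and 7.56 in Cre- mice, and was not called (limma adjusted p = 0.105). Macrophage and dendritic cell markers had larger summed signals in Cre+ mice, and 2 of each list were called higher in limma. Of 11 macrophage markers 8 had both Cre+ arrays above both Cre- arrays, against 34.2% of all kept genes. The 8 include Cd68 and Mertk, which were not kept because their means were under the filter. The macrophage markers had summed linear signals of 989 and 959 in Cre+ mice and 387 and 373 in Cre- mice. Of 10 dendritic cell markers 7 had both Cre+ arrays above both Cre- arrays, against 34.2% of all kept genes. The 7 include H2-Aa, H2-Ab1, H2-Eb1 and Cd74, while Flt3, Siglech and Xcr1 overlapped between the groups. H2-Aa read 8.65 and 8.75 in Cre+ mice, against 7.01 and 5.89 in Cre- mice. The sums of all 10 dendritic cell markers were 1180 and 1230 in Cre+ mice and 564 and 421 in Cre- mice. Among the defining macrophage markers, Csf1r and Adgre1 overlapped between the groups and Mertk was under the filter on every array, as was the dendritic marker Xcr1. The part of these cells in the Trim differences was not tested, and in bulk samples more cells of a type cannot be told apart from more RNA per cell.

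Trim2 had the widest difference of the family. It encodes a RING and NHL-repeat protein known in mouse neurons for the turnover of neurofilament light chain. Its representing probe set read 7.45 and 6.24 in Cre+ mice, against 3.45 and 3.83 in Cre- mice. Both Cre- values were in the lowest part of the signal range, and the Cre+ mice lay 1.20 apart. The means were 6.85 ± 0.85 in Cre+ and 3.64 ± 0.27 in Cre- mice (SD, n = 2 each), a difference of 3.20 ± 0.39 (SE). The size is uncertain because the Cre- signal was under the filter. Without Cre+ sample 1 the difference was 2.60 and without Cre+ sample 2 it was 3.80. 

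The 6 probe sets of Trim2 did not move alike. The representing set carries the mark of sets that can bind several transcripts. The next in signal, without that mark, read 5.72 and 4.40 in Cre+ mice, against 3.62 and 3.72 in Cre- mice. In this set too Cre+ sample 1 lay above Cre+ sample 2, and the groups did not overlap. The other 4 sets stayed under the filter on every array and differed by -0.11 to 0.45. With unmarked probe sets only, or averaged over its 6 sets, Trim2 did not reach the filter.

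Cre+ sample 1 was also the array with the highest signal of Col1a2. Col1a2, a collagen chain, read 11.55 and 8.01 in Cre+ mice, against 5.18 and 5.33 in Cre- mice. The 10 stromal and epithelial markers had summed linear signals of 3320 and 637 in Cre+ mice and 326 and 351 in Cre- mice, most of which in Cre+ sample 1 was Col1a2. Without Col1a2 the sums were 332 and 380 in Cre+ mice and 290 and 310 in Cre- mice, and the median difference of all 10 markers was -0.015. Of these markers 4 had both Cre+ arrays above both Cre- arrays, against 34.2% of all kept genes, and 1 had them below. The 4 include Foxn1, which was not kept. Pdgfrb read 6.56 and 6.80 in Cre+ mice, against 5.68 and 5.58 in Cre- mice. It was the 1 marker of this list called higher (limma adjusted p = 0.04), against 1.11% of all kept genes. The defining genes Col1a1, Col3a1, Pdgfra and Foxn1 were under the filter on all 4 arrays. What part such cells have in the Trim2 signal was not tested.

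**Figure D4:**
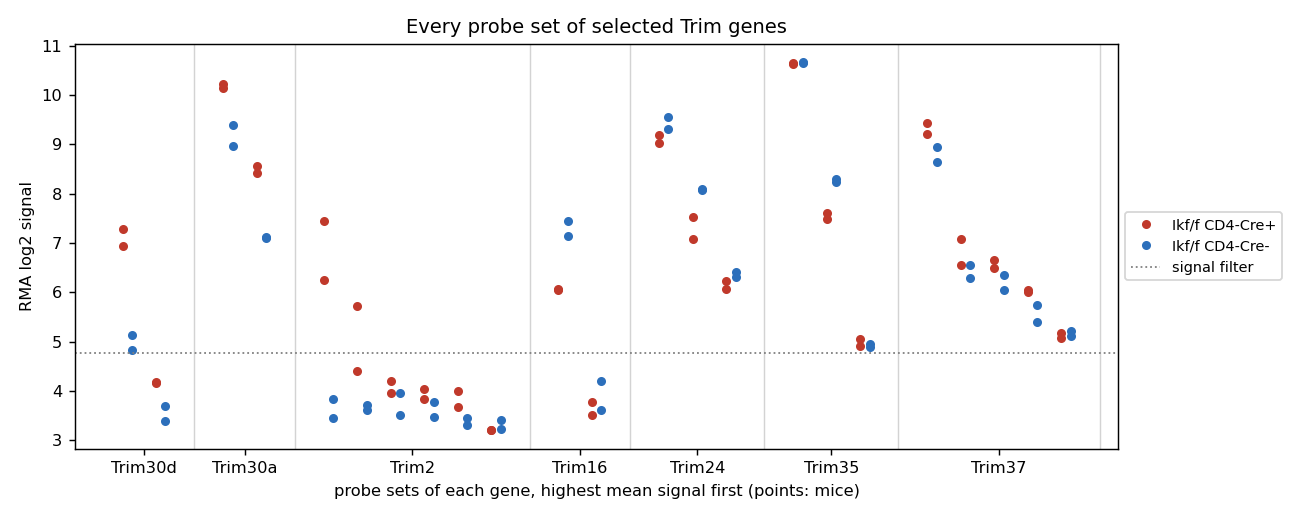
RMA log2 signal of every probe set of 7 Trim genes in each mouse, Cre+ in red and Cre- in blue, probe sets of a gene ordered by mean signal and the signal filter dotted. Both probe sets of Trim30a and all 3 of Trim24 separate the groups, in the same direction within each gene. Of the 6 Trim2 sets 4 lie under the filter on every array, and 1 more has a mean under it (4.36). A Trim35 set (difference -0.73) separates the groups, while its brighter one (-0.02) does so by far less.

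Trim32, the other NHL member kept, is a ligase whose loss causes a muscular dystrophy. It read 7.59 and 7.43 in Cre+ mice, against 7.21 and 6.82 in Cre- mice. The groups did not overlap, but the difference of 0.49 ± 0.17 (SE) was not called (limma adjusted p = 0.189). Trim3 and Trim71, the remaining NHL members on the array, were under the filter and differed by -0.18 and 0.09.

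Trim16 had the lowest Cre+ minus Cre- difference of the family, in which 13 of the 37 kept genes had a negative difference. It encodes a SPRY protein without a RING finger that acts in the clearance of damaged endomembranes by autophagy. It read 6.04 and 6.07 in Cre+ mice, against 7.15 and 7.44 in Cre- mice. The Cre+ mice differed by only 0.02, and both lay more than 1 unit under the lower Cre- mouse. The means were 6.06 ± 0.02 in Cre+ and 7.29 ± 0.21 in Cre- mice (SD, n = 2 each), so the signal was lower by 2.36-fold (difference -1.24 ± 0.14, SE). The further Trim16 probe set read 3.78 and 3.52 in Cre+ mice, against 3.62 and 4.20 in Cre- mice, under the filter and with overlap. With the mean of both sets Trim16 differed by -0.75, and with 1 array left out by -1.38 to -1.09.

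Other SPRY members outside the interferon list went both ways and did not pass. Trim39, which stabilises a proapoptotic partner of Bax, read 8.64 and 8.47 in Cre+ mice, against 9.25 and 9.20 in Cre- mice. This is a gap of 0.67 ± 0.12 (difference -0.67, limma adjusted p = 0.0692) without overlap. Trim11 read 8.82 and 9.05 in Cre+ mice, against 9.54 and 9.16 in Cre- mice, where the groups were separated by 0.12 only. Trim41 read 8.32 and 8.09 in Cre+ mice, against 8.53 and 8.38 in Cre- mice, and its other probe set read 7.86 and 7.55 in Cre+ mice, against 8.08 and 8.34 in Cre- mice. Both Trim41 probe sets were lower in Cre+ mice. Trim65, a ligase for MDA5, read 6.29 and 6.06 in Cre+ mice, against 5.66 and 5.35 in Cre- mice. It was the kept SPRY member of this list with the largest positive difference (0.67 ± 0.16, SE, limma adjusted p = 0.109).

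In Trim35 and Trim37 probe sets above the filter had differences of opposite sign that lay at least 0.5 apart. The opposite sign came from a set near 0 with overlapping groups, at 0.07 in Trim35 and -0.05 in Trim37. Trim35, a binding partner of the muscle-type pyruvate kinase, read 10.65 and 10.63 in Cre+ mice, against 10.66 and 10.66 in Cre- mice. A further Trim35 probe set read 7.60 and 7.48 in Cre+ mice, against 8.23 and 8.30 in Cre- mice, a difference of -0.73 without overlap. No source used here says which transcripts these sets measure. Trim27, known as the Ret finger protein, read 10.96 and 10.92 in Cre+ mice, against 10.54 and 10.90 in Cre- mice, and its 4 probe sets above the filter differed by 0.0011 to 0.24. Of the 9 kept members of the SPRY list other than Trim16, 0 rose, 0 fell and 9 did not pass in limma, with 1 higher and 1 lower at an unadjusted p under 0.05 (14.3% and 6.29% of all kept genes).

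The PHD and bromodomain members are transcriptional cofactors with known roles in chromatin. Trim28, the corepressor of KRAB zinc finger proteins, read 11.24 and 11.24 in Cre+ mice, against 10.91 and 11.27 in Cre- mice. Its groups overlapped through Cre- sample 2. Trim33 read 10.67 and 10.67 in Cre+ mice, against 10.60 and 10.60 in Cre- mice, a gap of 0.07. Trim24, a coregulator of nuclear receptors, read 9.19 and 9.03 in Cre+ mice, against 9.56 and 9.32 in Cre- mice. All 3 Trim24 probe sets had both Cre+ arrays below both Cre- arrays, with differences of -0.33, -0.78 and -0.20. The set at -0.78 read 7.54 and 7.09 in Cre+ mice, against 8.10 and 8.08 in Cre- mice. In limma 0 of the 3 kept members passed, and 0 had an unadjusted p under 0.05 in their representing probe set. Over all kept genes 14.3% were higher and 6.29% lower at the unadjusted threshold.

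Members with other domains included Trim37, Trim13, Trim59, Trim36 and Trim46. Trim37, a ligase of peroxisomes and centrosomes, read 9.22 and 9.43 in Cre+ mice, against 8.65 and 8.95 in Cre- mice. Of its 5 probe sets 4 differed by 0.38 to 0.53 and 1 by -0.05, and the gene was not called (limma adjusted p = 0.152). Trim13, anchored in the endoplasmic reticulum, read 7.92 and 7.00 in Cre+ mice, against 6.93 and 6.89 in Cre- mice. Cre+ sample 1 alone made most of that difference of 0.55 ± 0.30 (SE). Trim59, also membrane-anchored, read 10.34 and 10.81 in Cre+ mice, against 10.33 and 10.36 in Cre- mice. Here Cre+ sample 2 stood apart, the array on which 16 proliferation genes had a mean signal of 10.21, against 9.38 in Cre+ sample 1 and 8.74 and 9.67 in Cre- samples 1 and 2. Its link to Trim59 was not tested. Trim36 read 4.76 and 4.83 in Cre+ mice, against 4.98 and 4.96 in Cre- mice, and Trim46, which bundles microtubules in axons, read 4.83 and 4.98 in Cre+ mice, against 4.97 and 5.10 in Cre- mice, both close to the filter. The other 9 kept members, among them Trim8, Trim23, Trim44 and Trim62, differed by -0.10 to 0.27.

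**Figure D5:**
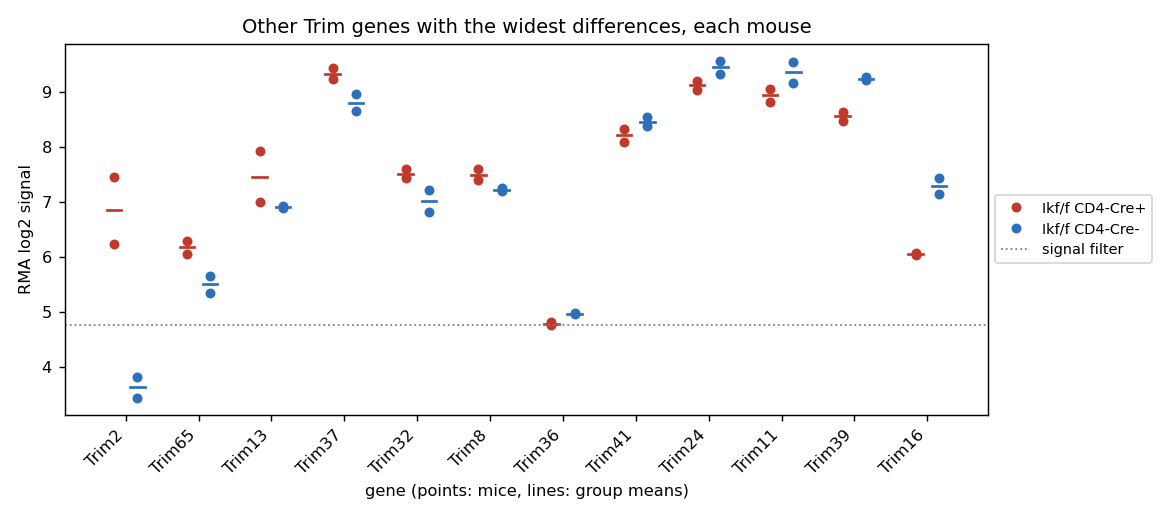
RMA log2 signal in each mouse of the 12 Trim genes outside the interferon list with the widest differences in either direction (6 each), Cre+ in red and Cre- in blue, with group means as short lines and the signal filter dotted. The Cre+ mice of Trim2 (7.45 and 6.24) and Trim13 (7.92 and 7.00) lie far apart from each other, while those of Trim16 (6.04 and 6.07) coincide.

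The 21 Trim genes under the filter had means of 3.09 to 4.76 and differences of -0.30 to 0.73. Their groups did not overlap in 8 cases (38.1%), against 34.2% of all genes under the filter. Over all 111 Trim probe sets, 42 had both Cre+ arrays above both Cre- arrays (37.8%), against 26.6% of named probe sets, and 22 had them below (19.8%), against 19.4%. Sets of the same gene count separately here, so these are not shares of genes. Both counts include sets of Trim2, and the 22 include a set of Trim16, the genes whose differences chose the family.

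Proteins with the same architecture under other gene names were looked at with their ubiquitin-conjugating partners. Of the 3 kept genes of the first kind 0 passed in limma, with 1 higher and 0 lower at an unadjusted p under 0.05. Over all kept genes 14.3% were higher and 6.29% lower at that threshold. Pml, which builds nuclear bodies and is induced by interferon, read 8.02 and 7.83 in Cre+ mice, against 7.32 and 7.65 in Cre- mice (limma adjusted p = 0.202). Mid1, a microtubule-bound ligase, read 10.08 and 8.26 in Cre+ mice, against 10.03 and 9.99 in Cre- mice, so that only Cre+ sample 2 was low. Of 8 conjugating enzymes 0 passed in limma, with 1 higher and 0 lower at an unadjusted p under 0.05, and their differences lay between -0.17 and 0.42. Ube2n, which builds lysine-linked chains in antiviral signalling, read 9.23 and 9.18 in Cre+ mice, against 8.43 and 9.14 in Cre- mice.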

How the data were processed

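RNA of 4 mice was hybridised to Affymetrix arrays, 1 per mouse, after a 2-cycle biotin labelling, per the labels' protocols. The deposited values are log2 signals that the authors made with RMA, per the submitters' processing notes (version not stated); the base is taken from RMA's scale. Scanner files were not used here. Probe sets were named from the platform annotation. All 58 Trim symbols matched a current RefSeq table.

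Of 45037 probe sets, 34945 had a single symbol. Each gene took its probe set with the highest mean, and 11639 of 18193 genes reached the 40th percentile (4.76). Groups were compared with limma 3.58.1 in R 4.3.3 (lmFit, eBayes, two-sided, Benjamini-Hochberg), with 2 residual and 3.59 prior degrees of freedom. An exact permutation test of 2 against 2 cannot go below 0.333. On simulated data for Cre+ against Cre- (11639 genes, 200 changed) the fit found 68 of 100 genes shifted by 1 and 95 of 100 shifted by 2, with 10 false among 173 calls. The simulated noise was independent between genes, with variances drawn from limma's fitted prior. It held no differences between mice that many genes share, so it cannot show how far calls on the real arrays hold. The number of arrays limits precision. Alternatives varied the filter, probe sets, variance prior, scaling, weights, sample number and each array.

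Members and lists were chosen with earlier results of these data known. Per-array values are given for called and interferon-linked genes, the 8 widest differences each way, 6 genes of high signal, NHL and PHD members, and genes whose probe sets disagree. Some listed genes were not analysed here. Figures were drawn with matplotlib 3.10.9.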

Additional observations from a re-analysis of the deposited data

Results flagged for a closer look

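A probe set annotated to both Trim30d and Trim30a was outside the comparisons, which used only probe sets of a single gene, and had higher signal in Cre+ mice than in the controls. It read 7.44 and 6.97 in Cre+ mice, against 5.59 and 6.47 in Cre- mice, a difference of 1.18. The Cre- mice of this set lay 0.88 apart, more than the distance from Cre- sample 2 to the lower Cre+ mouse. A set annotated to Gm38525 and Trim30b went the other way, without overlap. It read 4.63 and 4.95 in Cre+ mice, against 5.45 and 5.34 in Cre- mice, a difference of -0.60. The sets shared by Trim34b and Trim34a differed by 0.06 and -0.05 and overlapped between the groups. The set of H2aw and Trim17 differed by 0.19. None of these shared sets was tested.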

How the results depend on the processing

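Having 2 mice per group limits every call, and 13 alternatives were run. The counts here include Trim2 and Trim16, whose differences chose the family, and Trim2 passed the filter only through the Cre+ mice. Their calls under any setting describe these values and are no support for a change in either gene. Trim2 and Trim30d were the 2 genes called higher, and Trim16 the 1 called lower, without the filter, with median-centred arrays and with array weights. With a variance trend, and with 1 row per probe set, Trim30a joined them, for 3 higher. With the filter at the 60th percentile 0 were called higher, since Trim2 and Trim30d no longer reached it. With averaged probe sets 0 were called lower, and the genes called higher were Trim30a and Trim30d. With unmarked probe sets only 1 was called higher. With the sample number as a replicate block 4 were called higher and 2 lower, adding Trim30a, Trim65 and Trim39. Calls over all genes were 821 under the block, against 160 without it. Deviations of same-numbered arrays correlated at 0.18 over kept genes, with only 2 pairs, so the numbers were not taken to pair the mice. Leaving out 1 array gave 0 to 2 Trim genes called higher and 0 lower in each case, with 3 to 99 genes called over the whole table. Ikzf1 was called lower in Cre+ mice in the main fit of all 4 arrays (difference -1.53, limma adjusted p = 0.024). With 1 array left out its difference lay between -1.69 and -1.37, and it was not called. The interferon-linked median was 0.29; it was 0.12 with averaged probe sets, 0.18 with unmarked probe sets, 0.24 with 1 row per probe set and 0.26 to 0.39 with 1 array left out. The other Trim median was 0.05; it was 0.029 without the filter, 0.015 with averaged probe sets, -0.0225 with unmarked probe sets, 0.0315 with 1 row per probe set, 0.0186 with centred arrays and 0.037 to 0.0795 with 1 array left out. Signs turned in 14 genes, none called and none differing by more than 0.23 in size. Trim12c was at -0.0394, Trim33 at -0.0542 and Trim36 at 0.015 with averaged probe sets, Trim62 at -0.13 with unmarked probe sets, and Trim12c at -0.0102, Trim23 at -0.0014 and Trim61 at -0.0045 with centred arrays. With 1 array left out, Trim5 ranged from -0.27 to 0.39, Trim12c from -0.0013 to 0.0418, Trim23 from -0.14 to 0.19, Trim28 from -0.0245 to 0.34, Trim29 from -0.24 to 0.17, Trim44 from -0.11 to 0.0339, Trim45 from -0.0086 to 0.30, Trim56 from -0.21 to 0.0642, Trim59 from -0.0066 to 0.46, Trim61 from -0.0449 to 0.0968 and Trim68 from -0.24 to 0.0318. The cause of these shifts was not tested.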
